A study of Mus musculus with 57 samples.

Results

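The genes described here are 9 plasma carrier proteins made by the liver: Alb (ENSMUSG00000029368), Ttr (ENSMUSG00000061808), Rbp4 (ENSMUSG00000024990), Trf (ENSMUSG00000032554), Ahsg (ENSMUSG00000022868), Fetub (ENSMUSG00000022871), Gc (ENSMUSG00000035540), Hrg (ENSMUSG00000022877) and Serpina6 (ENSMUSG00000060807). They were chosen by name, as the rows whose Ensembl ID maps to these symbols, and make up 9 of the 54307 genes in the table. All 9 passed the filter on low counts in every comparison. RNA-seq was measured in the livers of 57 wild-type male C57BL/6JJcl mice, aged 6 weeks before 1 week of acclimatisation, fasted for 12 h and sampled 24 h after administration. The series was made to test how well the cell types of injured liver can be estimated from whole-tissue expression.

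By gavage, 4 mice received alpha-naphthyl isothiocyanate (ANIT), 6 acetaminophen (APAP), 7 4,4'-methylene dianiline (MDA) and 5 thioacetamide (TAA). Their control group (Ctrl) was 13 mice given 0.5% methylcellulose by gavage. By intraperitoneal injection, 7 mice received CCl4 (carbon tetrachloride) and 4 galactosamine (GAL), and their control group (CIP) was 2 mice given 0.9% saline. By intravenous injection, 7 mice received the lectin concanavalin A (ConA), and the control group (CIV) was 2 mice given 0.9% saline. Corn oil is listed among the vehicles without a control group of its own, so for a compound given in it the effects of compound and vehicle cannot be told apart. The labels give no amount of compound per mouse. ANIT and MDA are known as toxicants of the bile ducts. APAP, TAA and CCl4 are known to injure hepatocytes around the central vein after being metabolised there. GAL is known to deplete uridine nucleotides in hepatocytes, and ConA to injure the liver through T cells.

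Hepatocytes secrete most of the protein in plasma. Albumin carries fatty acids, bilirubin, metals and drugs and holds water in the circulation. Transthyretin (Ttr) carries thyroxine and binds retinol-binding protein (Rbp4), which delivers vitamin A. Transferrin (Trf) carries iron, the vitamin D-binding protein (Gc) also binds actin released from dead cells, and Serpina6 is the corticosteroid-binding globulin. The fetuins Ahsg and Fetub and histidine-rich glycoprotein (Hrg) belong to the cystatin superfamily; Ahsg binds calcium phosphate, Fetub inhibits a protease of the egg coat, and Hrg binds heparin, zinc and plasminogen. Several of these proteins, Alb and Ttr among them, are textbook negative acute-phase proteins, whose plasma level falls during inflammation.

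In the RefSeq annotation of mouse build GRCm38.p6, Alb is followed by its relatives Afp and Afm on chromosome 5, and Ahsg, Fetub and Hrg lie next to each other on chromosome 16, followed by Kng2 and Kng1. Promoter sequence was found for 6 of the 9 members in the RefSeq table. The 120 bases before the start site are shown for Alb, the most abundant carrier, for the first of the start sites listed for Fetub, and for its neighbour Hrg, the carrier that moved furthest in opposite directions between compounds. Capitals mark CCAAT (or ATTGG, its other strand), TATAAA and TNTTTAC. Alb lies at chr5:90460750-90460869 on the plus strand, Fetub at chr16:22918262-22918381 on the plus strand and Hrg at chr16:22950952-22951071 on the plus strand.
Alb: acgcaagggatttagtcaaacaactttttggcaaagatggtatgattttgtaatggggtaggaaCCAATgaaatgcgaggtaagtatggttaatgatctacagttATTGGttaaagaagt
Fetub: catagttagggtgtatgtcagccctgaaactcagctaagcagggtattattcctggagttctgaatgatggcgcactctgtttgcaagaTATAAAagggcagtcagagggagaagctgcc
Hrg: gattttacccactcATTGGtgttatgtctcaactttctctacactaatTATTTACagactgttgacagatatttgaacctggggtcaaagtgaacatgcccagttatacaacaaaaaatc

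Within 250 bases before the start, on either strand, CCAAT was found in 5 of the 8 promoters listed for these 6 genes (at Alb, Rbp4, Fetub, Gc and Hrg) and in 33.8% of 32851 RefSeq mouse promoters. TATAAA, the TATA box, was found in 2 of the 8 (at Rbp4 and Fetub) and in 12.4% of promoters. TNTTTAC, the core of the FOXA motif, was found in 3 (at Rbp4, Fetub and Hrg) and in 10.9% of promoters. TTANNTAA, a site of the clock-driven factors DBP, TEF and HLF, was found in 1 (at Alb) and in 5.43% of promoters. These matches describe letters in a window, and no binding was measured.

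Estimated counts summed to between 13826343 and 35075809 per mouse, and mitochondrial genes held 5.11% to 39.3% of them. Levels are given as CPM, counts scaled to a common library total and then by TMM, which sets the bulk of genes to a common level. The values behave as if already divided by transcript length, so levels of different genes can be compared per length. TMM factors ran from 0.477 to 0.951 with ConA and from 1.60 to 1.78 with GAL. Scaling to library totals instead shifted the median log2 fold change over all genes by -0.59 with ConA, 0.76 with GAL and 0.43 with CCl4. The shift was 0.16 with APAP and -0.22 with ANIT, and within 0.1 for MDA and TAA. The hepatocyte markers Asgr1, Hpd, Tat, Fah, Ttc36, Cyp2d9 and Cyp2c29 were detected in every group. Gavage mice numbered 1 to 4 in the labels differed from the others at 321 of 13764 genes among the Ctrl mice alone, and the ANIT group holds only numbers 1 to 4. The labels do not say what the numbers stand for.

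Serpina6 fell with all 7 compounds and Ttr with 6, while Alb fell only with CCl4 and GAL among the comparisons with the vehicle of the same route. Fold changes come from edgeR's quasi-likelihood test, are given as log2 ± standard error, and are called at a p under 0.05 after Benjamini-Hochberg adjustment over all genes tested. With GAL 9 of 9 members were called lower and 0 higher, where 15.7% of 15509 genes were lower, 12.8% higher and 28.5% either. With CCl4 8 of 9 were called lower and 0 higher, where 15.6% of 15365 genes were lower, 18.0% higher and 33.5% either. Both comparisons rest on 2 saline mice. With libraries scaled to their totals 5 members were called lower with GAL and Gc reversed to 0.04, and Rbp4 reversed to 0.14 with CCl4, neither called.

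The other compounds moved fewer members. ANIT raised 3 (14.0% of all genes) and lowered 2 (14.2%), where 28.2% changed either way. MDA raised 1 (17.4%) and lowered 2 (16.4%), with 33.8% either way. APAP lowered 3 (14.6%) and raised 0 (17.3%), with 31.8% either way, and TAA lowered 3 (24.0%) and raised 0 (26.4%), with 50.5% either way. ConA lowered 2 (17.3%) and raised 0 (16.8%), with 34.2% either way. The median log2 fold change of the members was 0.06 with ANIT, -0.34 with APAP, -0.00 with MDA, -0.11 with TAA, -1.03 with CCl4, -1.66 with GAL and 0.03 with ConA. Over all genes tested the median lay between -0.01 and 0.10 in each of these comparisons.

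**Figure D1:**
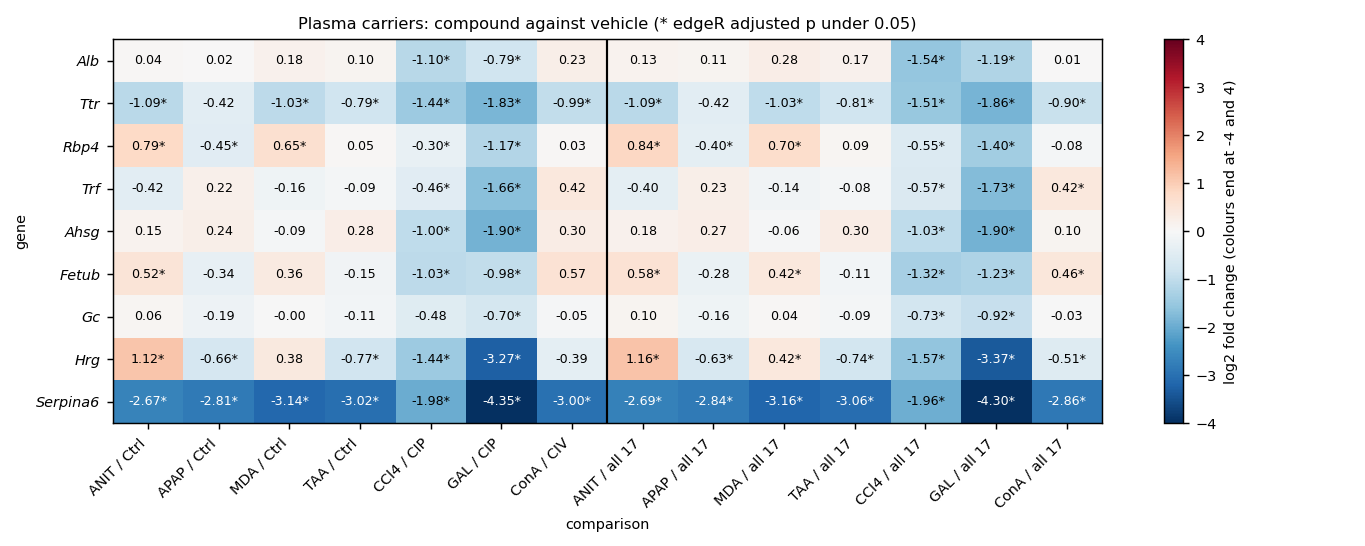
Log2 fold change of each of the 9 carriers (rows) for each compound (columns) against the vehicle of its route, left of the line, and against all 17 vehicle mice, right of it; an asterisk marks an edgeR adjusted p under 0.05. On the left, Serpina6 is marked in all 7 columns and Ttr in 6, and the GAL column is marked in all 9 rows, of which Gc reverses to 0.04 when libraries are scaled to their totals.

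Serpina6 carries corticosterone in plasma and had the lowest level of the 9. It stood at 135 (lowest), 156 (median) and 211 CPM (highest) in the 13 Ctrl mice, at 165 and 179 CPM in the CIP mice, and at 159 and 189 CPM in the CIV mice. With ANIT the 4 mice held 9.04, 24.7, 27.0 and 43.0 CPM. With TAA the 5 mice held 14.3, 15.1, 15.3, 18.3 and 34.7 CPM. Every one of these 9 livers lay below every vehicle liver.

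With GAL, Serpina6 stood at 4.71, 4.76, 6.80 and 19.3 CPM. The lowest, median and highest values were 6.74, 14.7 and 53.8 CPM with MDA, and 27.9, 44.4 and 52.3 CPM with CCl4. They were 4.12, 19.7 and 38.2 CPM with ConA. No treated liver reached the lowest of the 17 vehicle livers.

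The APAP group was uneven. Serpina6 was at 0.489 and 0.486 CPM in APAP mice 8 and 11, against 42.0, 27.6, 19.9 and 44.6 CPM in mice 1, 2, 4 and 6. The same 2 livers had the lowest sums of the 7 hepatocyte markers in the group, 1786 and 1329 CPM against 2860 to 7871 CPM in the other 4. They also had the highest sums of the 6 neutrophil markers, 190 and 259 CPM against 11.1 to 35.3 CPM, and of the 5 erythroid markers, 2335 and 1430 CPM against 126 to 469 CPM. The part of these markers in the carrier values was not tested.

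Serpina6 was 6.36-fold lower with ANIT (log2 -2.67 ± 0.27, edgeR adjusted p 2.71e-06) and 8.82-fold lower with MDA (-3.14 ± 0.35, 1.05e-06). It was 8.14-fold lower with TAA (-3.02 ± 0.21, edgeR adjusted p 8.36e-10) and 7.04-fold lower with APAP (-2.81 ± 0.65, 0.00268). It was 3.94-fold lower with CCl4 (-1.98 ± 0.17, edgeR adjusted p 3.70e-05), 20.4-fold lower with GAL (-4.35 ± 0.60, 0.00478) and 7.98-fold lower with ConA (-3.00 ± 0.54, 0.00222). Among gavage mice numbered above 4 the APAP value was -3.33 and not called (edgeR adjusted p 0.0511). Without APAP mice 8 and 11, left out after their values were seen, the fall with APAP was -2.24 in log2 units (edgeR adjusted p 2.01e-06).

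Ttr, the thyroxine carrier, stood at 3911, 4615 and 6904 CPM (lowest, median, highest) in Ctrl mice. It stood at 1793, 2160, 2329 and 2758 CPM in the 4 ANIT mice and between 1914 and 3151 CPM in the 7 MDA mice, all below every Ctrl mouse. In TAA mice it was at 2280, 2282, 2304, 2413 and 4180 CPM, the last in mouse 1 and inside the Ctrl range. In APAP mice it was at 1761 and 1604 CPM in mice 8 and 11 and at 4188 to 4969 CPM in the other 4.

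With ANIT, Ttr changed by -1.09 ± 0.14 in log2 units (edgeR adjusted p 3.07e-05), by -1.03 ± 0.12 with MDA (1.56e-06) and by -0.79 ± 0.16 with TAA (0.000508). Among mice numbered 1 to 4, where fewer mice enter, the TAA value was -0.71 and not called (edgeR adjusted p 0.174). With APAP the difference was -0.42 ± 0.21 and was not called (edgeR adjusted p 0.128), and it was -0.09 (0.675) without mice 8 and 11, on which it rests. With the number range as a covariate it was -0.53 and called (edgeR adjusted p 0.0418).

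In the saline controls Ttr stood at 5071 and 4327 CPM (CIP) and at 5890 and 3798 CPM (CIV). With GAL it stood at 1249, 1284, 1484 and 1524 CPM, with CCl4 between 1390 and 2058 CPM, and with ConA between 1640 and 3142 CPM. The 3 treated groups lay below all 4 saline mice. The log2 change was -1.83 ± 0.15 with GAL (edgeR adjusted p 0.00208), -1.44 ± 0.13 with CCl4 (3.88e-05) and -0.99 ± 0.27 with ConA (0.0181). Without CIV mouse 7 the ConA change was -0.61 and no longer called (edgeR adjusted p 0.216), and among mice numbered above 4 it was -1.02 (0.0673).

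Albumin was the most abundant member, with 28602, 44596 and 76439 CPM (lowest, median, highest) in Ctrl mice. The 4 ANIT mice held 33607, 35981, 39571 and 79539 CPM, and the 5 TAA mice 41358, 43892, 44162, 45523 and 64054 CPM. APAP mice ranged from 41216 to 51667 CPM and MDA mice from 33369 to 88222 CPM. All 4 gavage groups overlapped the Ctrl range.

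The log2 difference of Alb from Ctrl was 0.04 ± 0.25 with ANIT, 0.02 ± 0.19 with APAP, 0.18 ± 0.21 with MDA and 0.10 ± 0.21 with TAA. None was called (edgeR adjusted p 0.536 to 0.947). The APAP livers stayed close to one another in Alb (45510 ± 3690 CPM, SD, n = 6), mice 8 and 11 included at 41216 and 47326 CPM.

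With CCl4, Alb stood at 9532, 15292 and 19686 CPM (lowest, median, highest), below both CIP mice at 36869 and 28745 CPM. It was 2.15-fold lower (log2 -1.10 ± 0.22, edgeR adjusted p 0.00404). With GAL the 4 mice held 16124, 19290, 19295 and 24809 CPM, a fall of 1.73-fold (-0.79 ± 0.20, edgeR adjusted p 0.0316) that was not called when either CIP mouse was left out (0.153 and 0.0583), nor without GAL mouse 7 (0.0918) or 8 (0.0844). Scaled to library totals the CCl4 change was -0.69 and still called, whereas the GAL change was -0.04 and not called. With ConA, Alb stood between 20024 and 51416 CPM, around the CIV mice at 24063 and 46792 CPM, and was not called (0.23 ± 0.37, edgeR adjusted p 0.664).

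**Figure D2:**
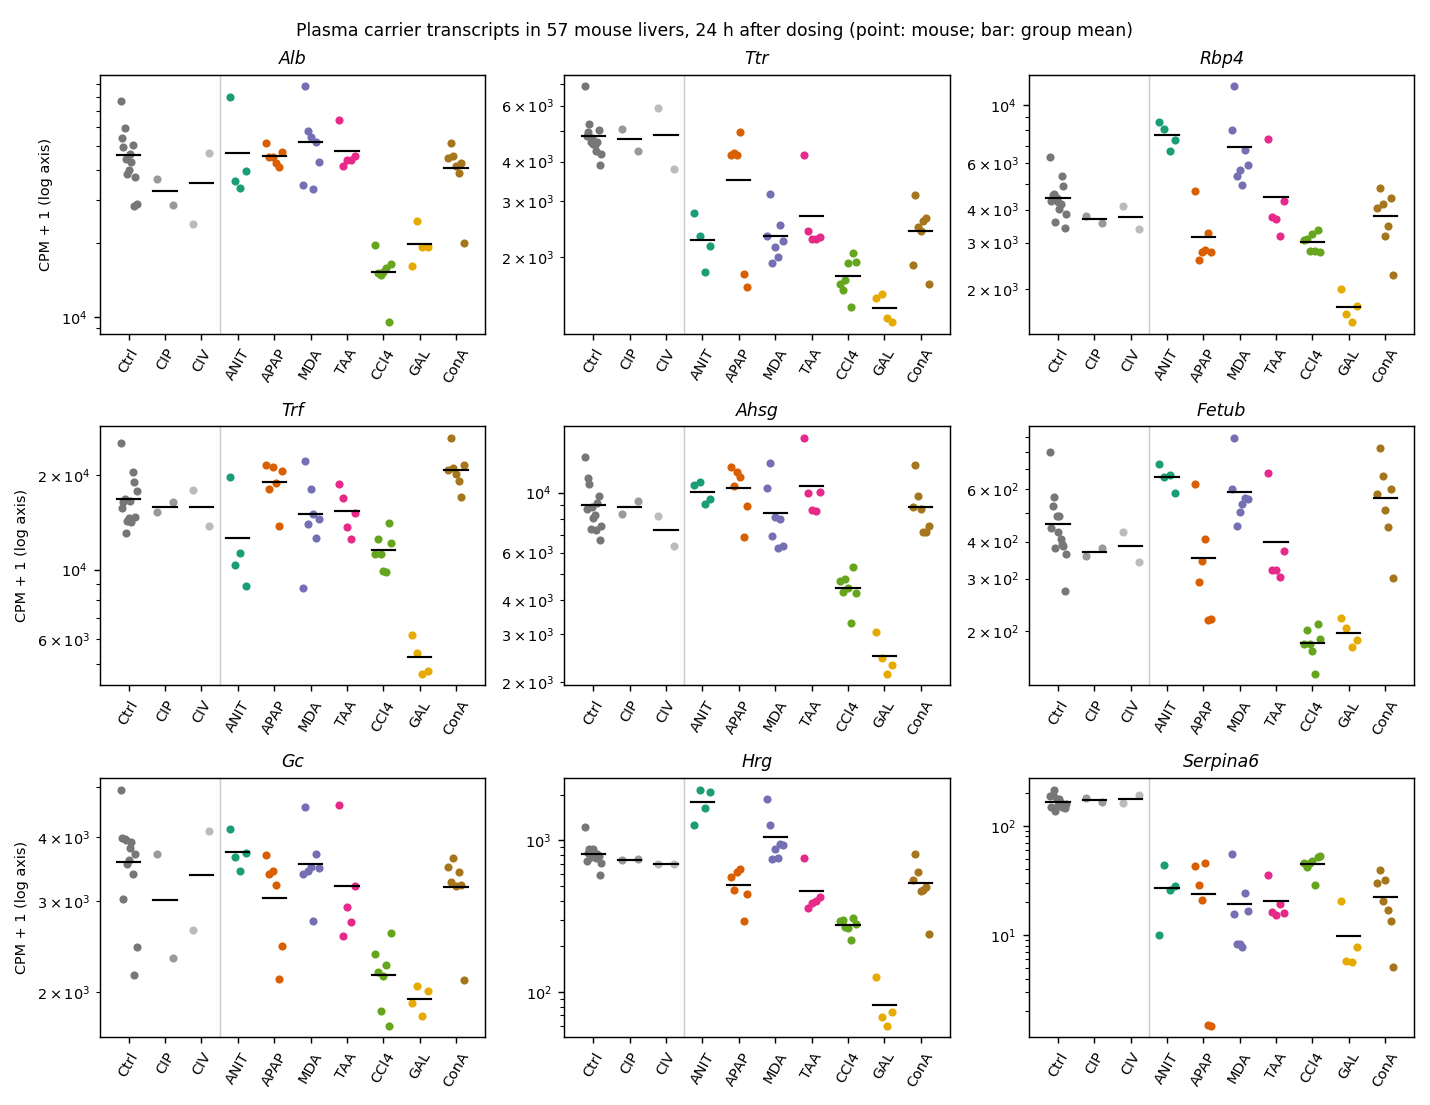
Level of each of the 9 carriers in every mouse (CPM + 1, logarithmic axis) by group; each point is 1 mouse and each bar a group mean. Serpina6 separates all treated mice from the 17 vehicle mice, Alb separates the CCl4 and GAL mice from both saline groups except 1 CIV mouse at 24063 CPM within the GAL range, and 2 APAP mice, at 0.489 and 0.486 CPM, lie lowest for Serpina6.

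Rbp4, the vitamin A carrier, rose with ANIT and MDA and fell with APAP. It stood at 3408, 4310 and 6342 CPM (lowest, median, highest) in Ctrl mice and at 6707, 7371, 8079 and 8588 CPM in the ANIT mice, which lay above every Ctrl mouse. It stood between 4954 and 11758 CPM in MDA mice, overlapping Ctrl, and between 2565 and 4702 CPM in APAP mice. Its partner in plasma, Ttr, was lower in the same ANIT and MDA livers.

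Rbp4 changed by 0.79 ± 0.13 in log2 units with ANIT (edgeR adjusted p 0.000292), 0.65 ± 0.15 with MDA (0.00252) and -0.45 ± 0.16 with APAP (0.0339). The APAP call was lost without mice 8 and 11 (-0.41, edgeR adjusted p 0.115). Among mice numbered 1 to 4 alone the ANIT change was 0.62 and called (edgeR adjusted p 0.0474), while the MDA value of 0.63 (0.213) and the APAP value of -0.47 (0.362) were not. Tested directly, Rbp4 was higher with ANIT than with APAP by 1.22 ± 0.21 (edgeR adjusted p 0.0133, 5.98% of genes called in either direction) and lower with APAP than with MDA by 1.10 ± 0.25 (0.0135, 9.43%). TAA and Ctrl livers differed by 0.05 ± 0.18, which was not called.

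In the injected groups Rbp4 was at 1500, 1603, 1716 and 2004 CPM with GAL and between 2769 and 3344 CPM with CCl4, against 3774 and 3572 CPM in CIP mice. The log2 change was -1.17 ± 0.15 with GAL (edgeR adjusted p 0.00376) and -0.30 ± 0.10 with CCl4 (0.0446). With libraries scaled to their totals the GAL value was -0.40 and not called (edgeR adjusted p 0.153). The CCl4 value reversed to 0.14 there, not called, and its call was lost without either CIP mouse. With ConA the difference was 0.03 ± 0.30.

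Hrg, the heparin- and plasminogen-binding carrier, had the largest span of the 9 among the called changes, from 2.17-fold higher with ANIT to 9.66-fold lower with GAL. It stood at 588, 785 and 1225 CPM (lowest, median, highest) in Ctrl mice. The 4 ANIT mice held 1255, 1636, 2071 and 2141 CPM, all above Ctrl. The 5 TAA mice held 358, 386, 395, 421 and 765 CPM, and the 6 APAP mice between 292 and 643 CPM. Both groups lay mostly below Ctrl and overlapped it.

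The log2 change of Hrg was 1.12 ± 0.14 with ANIT (edgeR adjusted p 2.42e-05), -0.66 ± 0.16 with APAP (0.0034) and -0.77 ± 0.18 with TAA (0.00126). With MDA it was 0.38 ± 0.16 and not called (edgeR adjusted p 0.0675). Among mice numbered 1 to 4 alone, Hrg remained called with ANIT (0.94, edgeR adjusted p 0.022) and was not called with APAP (-0.66, 0.125) or TAA (-0.67, 0.225), where fewer mice enter.

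Direct comparisons separated the bile duct toxicants from the other gavage compounds at Hrg. ANIT exceeded APAP by 1.76 ± 0.24 (edgeR adjusted p 0.00789) and TAA by 1.89 ± 0.28 (0.00134, where 26.2% of genes were called). MDA exceeded TAA by 1.17 ± 0.28 (edgeR adjusted p 0.00596, 30.0% of genes called) and APAP by 1.03 ± 0.25 (0.0206). ANIT and MDA differed by 0.74 ± 0.26, which was not called (edgeR adjusted p 0.478); edgeR called 0 of 13360 genes between these groups, with 1253 at an unadjusted p under 0.05. At the members, edgeR called 0 of 9 between ANIT and MDA with 1 at an unadjusted p under 0.05, and DESeq2 gave the same counts. Between APAP and TAA edgeR called 0 of 9 with 0 at an unadjusted p under 0.05, as did DESeq2, where edgeR called 2.62% of genes.

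With GAL, Hrg stood at 59.0, 67.8, 72.2 and 125 CPM against 743 and 745 CPM in CIP mice, a change of -3.27 ± 0.30 (edgeR adjusted p 0.00217). With CCl4 it stood between 219 and 308 CPM (-1.44 ± 0.12, edgeR adjusted p 2.54e-05). The GAL, CCl4 and CIP livers did not overlap. With ConA it stood between 240 and 811 CPM around 699 and 692 CPM in the CIV mice and was not called (-0.39 ± 0.36, edgeR adjusted p 0.428). Scaled to library totals the ConA value was -1.07 and called (edgeR adjusted p 0.0119).

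Fetub, the neighbour of Hrg, stood at 270, 430 and 801 CPM (lowest, median, highest) in Ctrl mice. It stood at 581, 659, 667 and 727 CPM with ANIT, between 449 and 891 CPM with MDA, and between 216 and 624 CPM with APAP. These 3 groups overlapped Ctrl. The rise with ANIT was 0.52 ± 0.19 (edgeR adjusted p 0.0432) and was 0.17 (0.566) with the number range as a covariate; leaving out any 1 of the 4 ANIT mice also ended the call. MDA gave 0.36 ± 0.16 and APAP -0.34 ± 0.23, neither called. Among mice numbered above 4 the MDA value was 0.47 and called (edgeR adjusted p 0.0383), and among mice numbered 1 to 4 it was 0.05 (0.921). Without the gavage mice of the lowest TMM factors, left out after seeing the data, the APAP value was -0.53 and called (0.0262). Without APAP mice 8 and 11 it was -0.08 (edgeR adjusted p 0.847).

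Fetub fell with both intraperitoneal compounds. It stood between 142 and 210 CPM with CCl4 and at 176, 185, 203 and 220 CPM with GAL, below both CIP mice at 357 and 379 CPM. The log2 change was -1.03 ± 0.13 with CCl4 (edgeR adjusted p 0.000282) and -0.98 ± 0.15 with GAL (0.00646). The GAL call was lost with libraries scaled to their totals (-0.20, edgeR adjusted p 0.456). With ConA Fetub stood between 299 and 828 CPM and was not called (0.57 ± 0.35, edgeR adjusted p 0.233).

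Ahsg, the calcium phosphate-binding fetuin, stood at 6684, 8691 and 13583 CPM (lowest, median, highest) in Ctrl mice, and its differences with the gavage compounds lay between -0.09 and 0.28, none called. Scaled to library totals, the APAP value was 0.39 and called (edgeR adjusted p 0.0245). Ahsg fell to 2142, 2309, 2449 and 3043 CPM with GAL and to between 3297 and 5321 CPM with CCl4, against 8333 and 9347 CPM in CIP mice. The log2 change was -1.90 ± 0.16 with GAL (edgeR adjusted p 0.00217), and Ahsg was 2.01-fold lower with CCl4 (0.00055). Ahsg, Fetub and Hrg, which lie side by side, thus all fell with CCl4 and GAL, and of the 3 only Hrg was called lower by edgeR with APAP and TAA.

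Trf, the iron carrier and the second most abundant member in Ctrl livers, stood there at 13103, 16449 and 25229 CPM (lowest, median, highest). Its differences with the gavage compounds lay between -0.42 and 0.22, none called. The ANIT value (-0.42 ± 0.20, edgeR adjusted p 0.126) depended on mouse 1, with 19767 CPM against 8835, 10372 and 11286 CPM in the other 3, and was -0.73 and called without it (0.00605). Scaled to library totals, Trf was called lower with ANIT (-0.64, edgeR adjusted p 0.0144) and higher with APAP (0.36, 0.0334). Trf stood at 4657, 4764, 5415 and 6181 CPM with GAL and between 9821 and 14117 CPM with CCl4, against 15245 and 16411 CPM in CIP mice. The change was -1.66 ± 0.15 with GAL (edgeR adjusted p 0.00217) and -0.46 ± 0.13 with CCl4 (0.0243), and the latter was -0.02 and not called with libraries scaled to their totals. The CCl4 call was also lost without either CIP mouse, at -0.54 without mouse 7 (edgeR adjusted p 0.0557) and -0.38 without mouse 8 (0.177). With ConA Trf was higher by 0.42 ± 0.24, which was not called.

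Gc, the vitamin D and actin carrier, was called by edgeR with GAL, and not with the other 6 compounds against the vehicle of their route. It stood at 2152, 3714 and 4935 CPM (lowest, median, highest) in Ctrl mice, and its differences with ANIT, APAP, MDA, TAA and ConA lay between -0.19 and 0.06, none called. With GAL it stood at 1792, 1897, 2010 and 2050 CPM, below the CIP mice at 3704 and 2321 CPM (-0.70 ± 0.20, edgeR adjusted p 0.0423). That value was 0.04, not called, with libraries scaled to their totals, and the call was lost without GAL mouse 4, 7 or 8 or without CIP mouse 7. With CCl4 the difference was -0.48 ± 0.20 (edgeR adjusted p 0.0909), and it was called by DESeq2 (-0.53, adjusted p 0.0196) and by edgeR without CIP mouse 8 (-0.75, 0.0459). With ConA, Gc was called lower when libraries were scaled to their totals (-0.67, edgeR adjusted p 0.0438).

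The 2 intraperitoneal compounds were compared directly at all 9 members, and 42.5% of 14708 genes were called between them. The fall was deeper with GAL than with CCl4 for Serpina6 by 2.28 ± 0.38 in log2 units (edgeR adjusted p 0.000585), Hrg by 1.74 ± 0.19 (3.19e-05), Trf by 1.10 ± 0.12 (2.80e-05), Ahsg by 0.80 ± 0.13 (0.000428) and Rbp4 by 0.79 ± 0.10 (6.12e-05). Alb was lower with CCl4 by 0.42 ± 0.18, which was not called (edgeR adjusted p 0.0789). Ttr, Fetub and Gc were not called by edgeR either. DESeq2 called 6 members, Ttr in addition. Scaling to library totals called Alb (lower with CCl4, -0.65, edgeR adjusted p 0.00611) and Fetub (-0.39, 0.0282), and Alb was called in 1 of the 4 fits without 1 GAL mouse, mouse 2 (range -0.52 to -0.28).

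In bulk tissue, fewer hepatocytes and less RNA per hepatocyte cannot be told apart. The summed level of the 7 hepatocyte markers was 5647 to 11469 CPM in Ctrl, 6502 to 8379 CPM in CIP and 6844 to 8217 CPM in CIV livers. It was 1580 to 2580 CPM with CCl4, 1121 to 1884 CPM with GAL, 2581 to 6914 CPM with TAA and 1329 to 7871 CPM with APAP. It was 7478 to 10577 CPM with ANIT, 5046 to 10287 CPM with MDA and 3419 to 7314 CPM with ConA. With CCl4 and with GAL 7 of 7 markers were called lower, where 15.6% and 15.7% of all genes were. With APAP and with TAA 6 of 7 were called lower, where 14.6% and 24.0% of all genes were. The part of hepatocyte number in the carrier values was not tested.

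Markers of blood cells moved as well. The 6 neutrophil markers summed to 0.666 to 49.6 CPM in Ctrl livers, with Ly6g at 0 in all 13, and to 156 to 799 CPM with TAA. With ConA they summed to 124 to 286 CPM, against 5.80 to 6.17 CPM in CIV livers. The 5 erythroid markers summed to 93.1 to 385 CPM in Ctrl livers and 3022 to 5285 CPM with TAA. With ConA they summed to 1314 to 6838 CPM, against 103 to 175 CPM in CIV livers. The 5 Kupffer cell markers summed to 24.3 to 49.2 CPM with ConA against 271 to 274 CPM in CIV livers. The part of these cell types in the carrier values was not tested.

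Against all 17 vehicle mice together, the calls at the 4 gavage compounds gained only Fetub and Hrg with MDA. Fetub was higher there by 0.42 ± 0.15 (edgeR adjusted p 0.031) and Hrg by 0.42 ± 0.14 (0.0218). With no filter on low counts the Fetub call with MDA was lost (0.42, edgeR adjusted p 0.0529), and that with ANIT was lost without ANIT mouse 1 (0.52, 0.0538) or 3 (0.57, 0.051). Library totals as scaling gave Trf called lower with ANIT (-0.64, edgeR adjusted p 0.00665), and Ahsg (0.40, 0.0132) and Trf (0.36, 0.0208) higher with APAP. Without APAP mice 8 and 11, Rbp4 with APAP was no longer called (-0.36, edgeR adjusted p 0.131) and Ahsg was called higher (0.44, 0.0401). The counts were 3 higher and 2 lower with ANIT (13.5% and 14.5% of genes, 28.0% either way) and 0 and 3 with APAP (18.1% and 15.3%, 33.4%). They were 3 and 2 with MDA (17.2% and 17.1%, 34.2%) and 0 and 3 with TAA (25.2% and 24.5%, 49.7%). These comparisons share their control mice with those above and are no independent check.

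With the larger control group all 9 members were called lower with CCl4 (27.2% of genes lower, 26.2% higher, 53.4% either way) and with GAL (27.5%, 25.1% and 52.5%). Alb was 2.91-fold lower with CCl4 (log2 -1.54 ± 0.19, edgeR adjusted p 1.59e-07) and 2.28-fold lower with GAL (-1.19 ± 0.24, 0.00022). Gc was lower by -0.73 ± 0.13 with CCl4 (edgeR adjusted p 4.47e-05). With libraries scaled to their totals, Rbp4 (-0.00304, edgeR adjusted p 0.981), Trf (-0.02, 0.883) and Gc (-0.17, 0.196) were no longer called with CCl4. Alb (-0.32, edgeR adjusted p 0.0746) and Gc (-0.06, 0.7) were no longer called with GAL. The route of administration then differs from most of the controls.

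With ConA, 2 members were called higher and 3 lower against all 17, where 34.3% of 13805 genes were higher, 33.7% lower and 68.0% either. Trf was higher by 0.42 ± 0.11 (edgeR adjusted p 0.00169) and Fetub by 0.46 ± 0.17 (0.0181), and Ttr, Hrg and Serpina6 were lower. Scaled to library totals, Trf (-0.20) and Fetub (-0.21) reversed and were not called, and Alb (-0.64), Ahsg (-0.54), Rbp4 (-0.75) and Gc (-0.67) were called lower as well, 7 of the 9 in all. The Fetub call was also lost with no filter on low counts (0.39, edgeR adjusted p 0.0601). The direction of Trf, Fetub, Alb and Ahsg with ConA therefore depends on the scaling, whereas Ttr, Hrg and Serpina6 were lower under both.

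Between vehicles, edgeR called 0 of 9 members for CIP against Ctrl and 0 of 9 for CIV against Ctrl, with 0 at an unadjusted p under 0.05 in each and 0 by DESeq2. Among all genes 0.0131% and 0.0263% were called. Between Ctrl mice numbered 1 to 4 and the other 9, edgeR called 0 members (2.33% of genes), although all 9 were higher in the low numbers, by 0.22 (Trf) to 0.60 (Alb). There 5 had an unadjusted p under 0.05 and DESeq2 called 3.

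Every treated mouse lay below every route control for 9 members with GAL (23.9% of all genes tested), 8 with CCl4 (18.5%), 2 with ConA (20.5%), 2 with ANIT (4.93%), 2 with MDA (3.07%), 1 with APAP (4.68%) and 1 with TAA (9.85%). Every treated mouse lay above every control for 2 members with ANIT (4.04% of genes), Rbp4 and Hrg, and for 0 with the other compounds.

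The 9 carriers together held 8.34% to 11.2% of the nuclear estimated counts in Ctrl livers (9.63% ± 0.94, SD, n = 13), counting all genes but the mitochondrial ones. The share was 7.76% ± 1.53 (n = 2) in CIP and 8.67% ± 1.52 (n = 2) in CIV livers. It was 6.01% ± 0.46 (n = 7) with CCl4, 6.47% ± 0.57 (n = 4) with GAL and 7.05% ± 0.57 (n = 7) with ConA. With TAA it was 9.73% ± 0.26 (n = 5), with MDA 9.91% ± 1.48 (n = 7) and with APAP 10.9% ± 1.44 (n = 6).

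Against the vehicle of the same route no share passed the threshold in exact two-sided permutation tests adjusted over the 7 compounds. CCl4 gave -1.75 percentage points (exact p 0.0556, the smallest that 7 against 2 mice allow; adjusted 0.194), and GAL -1.29 points, where 4 against 2 mice cannot give a p under 0.133. APAP gave 1.23 points (exact p 0.0436, adjusted 0.194).

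Against all 17 vehicle mice (9.30% ± 1.18, SD) the share was lower with CCl4 by -3.29 points (exact permutation p 5.78e-06, the smallest possible; adjusted 4.05e-05), with GAL by -2.83 points (adjusted 0.00156) and with ConA by -2.25 points (adjusted 0.000465). It was higher with APAP by 1.57 points (exact permutation, adjusted p 0.0267). CCl4 mice ranged from 5.27% to 6.56%, below the lowest of the 17 at 6.67%. The ConA and vehicle ranges overlapped, at 6.19% to 8.02% against 6.67% to 11.2%.

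The ANIT share rested on 1 liver. ANIT mouse 1 held 12.7% and the other 3 between 6.89% and 7.50%. Without it the ANIT difference from Ctrl changed from -1.12 to -2.50 points (exact permutation, adjusted p 0.025), and the other 3 lay below every Ctrl mouse.

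**Figure D3:**
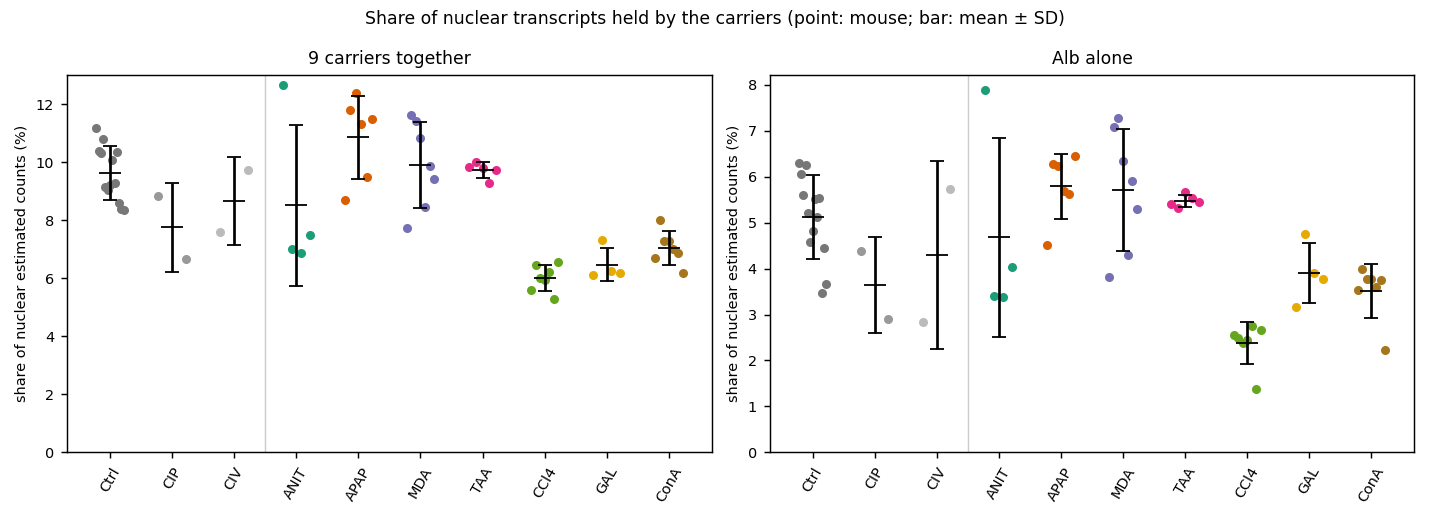
Share of nuclear estimated counts (%) held by the 9 carriers together and by Alb alone, by group; points are mice and bars are mean ± SD. CCl4 mice (5.27% to 6.56%) lie below all 17 vehicle mice in the sum, and ANIT mouse 1 (12.7%) lies above the other 3.

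Alb alone held 5.12% ± 0.91 (SD, n = 13) of nuclear counts in Ctrl livers and 2.37% ± 0.46 (n = 7) with CCl4, a difference from all 17 vehicle mice of -2.48 points (exact permutation, adjusted p 4.05e-05). With ConA it held 3.52% ± 0.59 (n = 7), -1.33 points (adjusted p 0.0261), and with GAL 3.90% ± 0.66 (n = 4), a difference of -0.95 points that did not pass (adjusted p 0.174). Trf held 1.89% ± 0.25 in Ctrl livers, 1.80% ± 0.23 with CCl4 and 1.03% ± 0.13 with GAL. Ahsg held 1.01% ± 0.14 in Ctrl, 0.688% ± 0.073 with CCl4 and 0.489% ± 0.074 with GAL. Against the CIP mice, the Alb share with GAL was 3.90% against 3.65%, a difference of 0.26 points (exact permutation p 0.8, adjusted 0.8). With CCl4 the Alb share differed from the CIP mice by -1.27 points (exact permutation p 0.0556, the smallest possible, adjusted 0.389). The 2 CIP mice held 1.81% and 1.66% for Trf, and 0.992% and 0.945% for Ahsg.

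**Figure D4:**
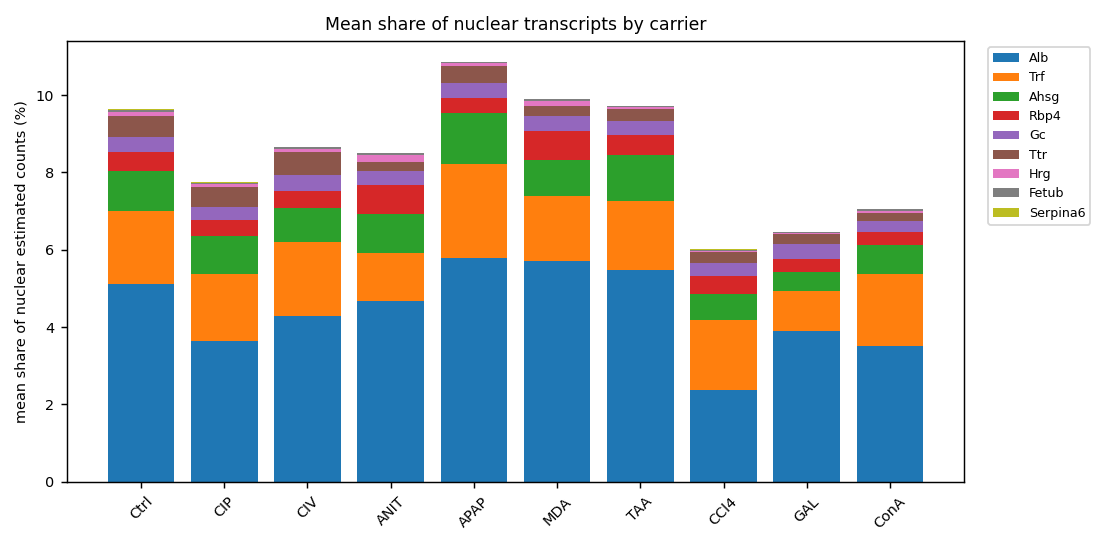
Mean share of nuclear estimated counts (%) by group, stacked by carrier. Alb is the largest part in every group, from 2.37% with CCl4 to 5.80% with APAP, and Trf is the next.

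Across the 10 groups, Alb was highest on average with MDA and lowest with CCl4, and its neighbours in the order overlapped except between CIP and GAL. Hrg was highest with ANIT and lowest with GAL, and TAA, CCl4 and GAL were separated from one another without overlap. For Serpina6 the 3 vehicle groups were highest and did not overlap the next, CCl4; the other 6 compounds overlapped their neighbours in order. Gc and Ttr overlapped at every step of their order.

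Over the 10 group means of log2(CPM + 1), Hrg (r 0.926) and Gc (0.915) followed the mean of the 9 members most closely and Serpina6 (0.606) least. The genes outside the 9 whose group means were most like that mean, among 5903 ranked, were Proc (r 0.987), which encodes protein C, Rab43 (0.982), the cytochrome Cyp2d26 (0.981), the amino acid transporter Slc38a3 (0.981) and Pxmp2 (0.978). The groups share no mice, 7 of the 10 received a toxicant, and these correlations describe the order of group means.

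The relatives of the carriers did not all move with them. Afp, the fetal counterpart of Alb and its neighbour, was at 0.385 to 1.11 CPM in the 17 vehicle livers. It rose with TAA by 4.18 ± 0.35 in log2 units (edgeR adjusted p 1.04e-08), CCl4 by 3.24 ± 0.27 (3.18e-05), APAP by 2.63 ± 0.42 (9.17e-05), GAL by 1.69 ± 0.39 (0.0224) and MDA by 1.24 ± 0.30 (0.00278). The GAL call was lost in 4 of the 6 fits that left out 1 mouse, with values from 1.56 to 1.85. Afm, the vitamin E-binding neighbour of Afp, fell with 6 compounds, from -0.73 ± 0.16 with TAA to -3.06 ± 0.38 with GAL, and was at -1.04 ± 0.44, not called, with ConA. Alb, Afp and Afm thus moved differently although they lie side by side, and the highest Afp level of any group was 33.6 CPM, with TAA, where Alb was at 41358 CPM or more.

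Serpina7, the thyroxine-binding globulin, changed with all 7 compounds but in both directions. It was at 2.81 to 33.7 CPM in the vehicle livers. It rose with CCl4 (3.03 ± 0.28, edgeR adjusted p 5.10e-05), ConA (2.92 ± 0.57, 0.00329), APAP (2.04 ± 0.60, 0.0131), ANIT (1.51 ± 0.46, 0.0195) and MDA (1.27 ± 0.37, 0.0102). It fell with TAA (-2.41 ± 0.53, edgeR adjusted p 0.000799) and GAL (-1.66 ± 0.46, 0.0385). With 1 mouse left out, the GAL call was lost in 5 of 6 fits (-2.14 to -1.42) and the ANIT call in 2 of 4 (1.22 to 1.75). Ttr, the other thyroxine carrier, was lower in all of these comparisons, though not called with APAP.

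Serpina10, the neighbour of Serpina6 on chromosome 12, rose with ANIT (1.10 ± 0.19), ConA (1.03 ± 0.34) and APAP (0.28 ± 0.10) and fell with GAL (-2.53 ± 0.48) and TAA (-0.50 ± 0.12), all called by edgeR. The ConA call was lost without either CIV mouse, and the GAL call in 2 of the 6 fits without 1 mouse. Of the 6 relatives and neighbours listed, 4 rose and 1 fell with ANIT and APAP, 3 and 1 with MDA, 2 and 3 with TAA and CCl4, 1 and 5 with GAL, and 3 and 0 with ConA. The kininogen Kng2, which follows Hrg on chromosome 16, rose with the 4 gavage compounds and ConA, by 0.32 to 0.82, and fell with CCl4 (-0.67 ± 0.16) and GAL (-1.13 ± 0.16).

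**Figure D5:**
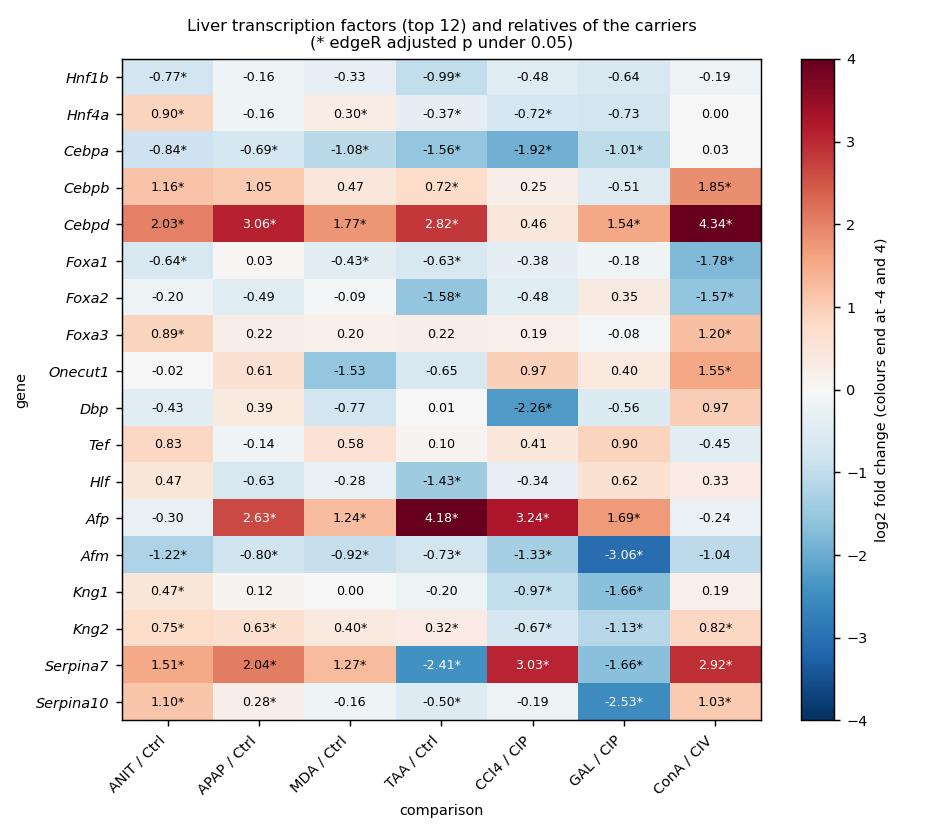
Log2 fold change of 12 of the 13 transcription factors and 6 relatives or neighbours of the carriers (rows) for each compound against the vehicle of its route (columns); asterisks mark an edgeR adjusted p under 0.05. Cebpa is marked lower in 6 columns and Cebpd higher in 6, while Afp and Serpina7 rise in columns where Alb or Ttr does not.

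Among 13 transcription factors known at liver promoters, Cebpa, which drives albumin expression, fell with 6 compounds. The log2 change ran from -0.69 ± 0.26 with APAP to -1.92 ± 0.14 with CCl4, and was 0.03 ± 0.36, not called, with ConA. Cebpd, an inflammation-induced member of the same family, rose with 6, from 1.54 ± 0.44 with GAL to 4.34 ± 0.43 with ConA, and was at 0.46 ± 0.44 with CCl4. Hnf4a, a central hepatocyte factor, rose with ANIT (0.90 ± 0.12, edgeR adjusted p 3.66e-05) and MDA (0.30 ± 0.09, 0.0169) and fell with CCl4 (-0.72 ± 0.11, 0.000874) and TAA (-0.37 ± 0.15, 0.0451). Dbp, a clock-driven factor, was called lower with CCl4 (-2.26 ± 0.41). With 1 mouse left out, calls were lost for Cebpd with GAL in 4 of 6 fits (1.08 to 2.36), Hnf4a with TAA in 3 of 5 (-0.59 to -0.27) and Dbp with CCl4 in 1 of 2 (-2.72 to -1.59).

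Of the 13 factors, 4 rose and 3 fell with ANIT, 1 and 2 with APAP, 2 and 2 with MDA, 2 and 6 with TAA, 0 and 3 with CCl4, 1 and 1 with GAL, and 4 and 2 with ConA. In the same order 28.2%, 31.8%, 33.8%, 50.5%, 33.5%, 28.5% and 34.2% of all genes were called either way. The counts with APAP, MDA, CCl4 and GAL lie near or below these shares. Cebpb rose with ANIT (1.16 ± 0.30), TAA (0.72 ± 0.24) and ConA (1.85 ± 0.35), and Foxa2 fell with TAA (-1.58 ± 0.28) and ConA (-1.57 ± 0.40). With 1 mouse left out, the Cebpb call was lost in 2 of 5 fits with TAA and 1 of 4 with ANIT, and the Foxa2 call with ConA in 1 of 2. The median of the list lay between -0.37 and 0.10, against -0.01 to 0.10 over all genes.

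Positive acute-phase genes, whose plasma products rise during inflammation, were counted from a list of 16. With ConA 16 of 16 rose (list median 2.26), with ANIT 15 (1.78), with MDA 15 (1.33) and with APAP 14 (1.60). With GAL 16 of 16 fell (-2.11), and with TAA and CCl4 5 rose and 1 fell (0.27 and 0.25). Saa1, serum amyloid A, changed by 5.61 ± 0.48 with ConA and -2.47 ± 0.60 with GAL, and Lcn2, lipocalin 2, by 7.84 ± 0.41 and -2.19 ± 0.62, all called by edgeR. With GAL the calls of Saa1 and Lcn2 were lost in 4 and 5 of the 6 fits without 1 mouse. Itih4, an inhibitor-family protein with the lowest median of the list, rose with ANIT (1.07 ± 0.18), ConA (0.94 ± 0.31) and APAP (0.61 ± 0.20). It fell with GAL (-2.25 ± 0.17), TAA (-0.76 ± 0.14) and CCl4 (-0.52 ± 0.14); the ConA call was lost without either CIV mouse and the CCl4 call without 1 of the 2 CIP mice. With ConA 7 of the 9 carriers were not called against the 2 CIV mice, where 34.2% of all genes were called either way. Scaled to library totals 4 carriers were called in that comparison. Against all 17 vehicle mice 5 were called.

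Of 11 receptors and handlers of the carried ligands, 2 rose and 1 fell with ANIT, 1 and 3 with APAP, 3 and 3 with MDA, 0 and 5 with TAA, 1 and 6 with CCl4, 0 and 6 with GAL, and 1 and 4 with ConA. The shares of all genes called either way, to be set beside this and the lists above, were 28.2%, 31.8%, 33.8%, 50.5%, 33.5%, 28.5% and 34.2% in the same order, so the 3 of 11 with ANIT, the 4 with APAP and the 5 with TAA lie near or below them. The list medians were -0.20, -0.36, -0.14, -0.43, -0.76, -1.48 and -0.52. Dio1, which converts thyroxine, fell with 6 compounds, from -1.22 ± 0.28 with TAA to -3.14 ± 0.70 with GAL, and was at -0.67 ± 0.37, not called, with APAP. Hamp, the iron hormone hepcidin, rose with ConA (2.57 ± 0.44), ANIT (1.17 ± 0.24) and MDA (0.74 ± 0.19) and fell with CCl4 (-0.82 ± 0.20). The transferrin receptor Tfrc rose with CCl4 (1.61 ± 0.40). With 1 mouse left out, calls were lost for Tfrc with CCl4 in 2 of 2 fits, Hamp with CCl4 in 1 of 2 and Dio1 with GAL in 4 of 6.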

How the data were processed

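Per the labels' protocols, stranded mRNA libraries were sequenced single-end. The authors deposited estimated counts per gene, and the submitters' processing notes name Salmon 1.6.0, R 4.1.3 and the mouse build GRCm39; how the counts were summed is not given in the sources used here. Among 4208 genes with 1 transcript, longer transcripts had lower minimum non-zero values (Spearman -0.944, across genes), so the values look length-scaled and reads cannot be counted from them. Symbols from GENCODE M21 matched 51482 of 54307 IDs and left 2825 without one.

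Values were rounded and fitted with edgeR 4.0.16 (R 4.3.3, limma 3.58.1) on the 2 groups of each comparison, with TMM, filterByExpr and the quasi-likelihood test; standard errors come from the F statistic. CPM uses TMM over all 57 mice. DESeq2 1.42.0, library totals, no filter, other covariates and left-out mice were alternatives. Shares were tested by exact permutation. Levels of other genes are named by rule: from each list the 2 highest and 2 lowest by median change, plus Afp, Afm, Dbp, Hnf4a, Cebpa, Tfrc, Saa1 and Lcn2; Kng2 was added after its values were seen, and 2 genes under the rule are not reported here. Genes like the members were ranked where the mean reached 10 CPM. The fits were tested on simulated data, where comparisons with 2 saline mice recovered a smaller share of the small changes than those with Ctrl, and TAA, GAL and ConA gave more false calls than the threshold sets; a value not called there does not show that a gene was unchanged. The members and all lists were chosen with earlier results of these data known, as were 2 alternatives that leave out livers standing apart. Mice are separate animals; replicate numbers did not pair them, since in no comparison with 3 or more shared numbers did every pair of deviations correlate above 0.1.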

Additional observations from a re-analysis of the deposited data

Results flagged for a closer look

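Dixon's test was applied to the members' CPM and to the shares within each group of 4 to 10 mice. It marked 19 of 77 groups, where chance marks about 1 in 20.

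TAA mouse 1 was the high value in 7 members: Alb 64054, Ttr 4180, Rbp4 7411, Ahsg 15882, Fetub 677, Hrg 765 and Serpina6 34.7 CPM. The other 4 TAA mice stayed at or below 45523, 2413, 4329, 10079, 371, 421 and 18.3 CPM. TAA mouse 1 also had the lowest TMM factor of its group, 0.725 against 0.947 to 1.15, which raises the CPM of every gene. Its share of nuclear counts, which does not use TMM, was 5.41% for Alb against 5.33% to 5.67% in the other 4, and 9.83% for the 9 members against 9.29% to 10.0%. For the other flagged members its share stayed the highest of the group. It was 0.353% for Ttr (at most 0.311% in the others), 0.626% for Rbp4 (0.519%) and 1.34% for Ahsg (1.28%). Fetub held 0.0572% (0.0444%), Hrg 0.0646% (0.0505%) and Serpina6 0.00293% (0.00230%). ANIT mouse 1 was high in Alb (79539 CPM against at most 39571), in the share of the 9 members (12.7% against at most 7.50%) and in the share of Alb (7.90% against at most 4.02%).

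ConA mouse 12 was low in Alb (20024 CPM against at least 38802), in Gc (2109 CPM against at least 3214) and in the share of Alb (2.23% against at least 3.53%). APAP mouse 1 was high in Rbp4 (4702 CPM), MDA mouse 2 in Fetub (891 CPM), MDA mouse 1 in Serpina6 (53.8 CPM) and GAL mouse 2 in Serpina6 (19.3 CPM). APAP mouse 1 and MDA mouse 2 likewise had the lowest TMM factors of their groups, 0.768 and 0.607. GAL mouse 4 was high in the share of the 9 members (7.32%), and CCl4 mouse 11 low in the share of Alb (1.37%).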

How the results depend on the processing

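Library totals as scaling gave 5 members called with APAP and 5 with GAL against their route controls, 4 with ConA, 5 with APAP against all 17, and 3 (ANIT against TAA), 4 (APAP against MDA) and 4 (MDA against TAA) in the direct pairs. It reversed Rbp4 with CCl4 (0.14) and, with GAL, Gc (0.0438), Hnf4a (0.0407), Cyp2e1 (0.19), Hsd17b13 (0.24), Hamp (0.12) and Cebpb (0.22). Against all 17, ConA then gave Ahsg -0.54, Fetub -0.21, Alb -0.64 and Trf -0.20. Alb with ConA, near 0, was also negative with DESeq2 (-0.00935), no filter (-0.0478), mitochondrial genes left out (-0.0190) and the replicate block (-0.21). DESeq2 called 3 members for ANIT against TAA and 3 between the Ctrl number ranges.

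With the replicate block, members called were 2 (ANIT) and 0 (APAP) against Ctrl, 3 (MDA against all 17), and 0, 0 and 0 (ANIT against APAP, ANIT against TAA, APAP against MDA). Calls lost were Hrg, Rbp4 and Fetub (ANIT), Serpina6, Hrg and Rbp4 (APAP) and Gc (GAL) against route controls, and Fetub and Hrg (MDA), Fetub (ANIT, ConA) and Rbp4 (APAP) against all 17. Calls gained against all 17 were Trf with ANIT (-0.61, edgeR adjusted p 0.0472) and Fetub with APAP (-0.64, 0.0395). Shares changed by -0.12 (MDA) and -0.21 (TAA) points. Among mice numbered 1 to 4, 1 member was called with APAP and 1 with TAA; above 4, 1 with ConA. Saa1 with TAA reversed with DESeq2 (0.32), limma (0.21), the block (0.63), the number range (0.19) and mice numbered 1 to 4 (1.70), where Lbp also did (0.66).

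With 1 mouse left out, members called ranged from 1 to 2 (ConA), 1 to 3 (ANIT against APAP), 1 to 3 (ANIT against TAA) and 1 to 3 (MDA against TAA), Cebpb with GAL from -0.96 to 0.11, and Gc with ConA from -0.32 to 0.29. The ANIT share ranged from -2.50 to -0.57 points against Ctrl and -2.16 to -0.24 against all 17; the Alb share from -0.48 to 1.00 (GAL against CIP), -2.22 to 0.67 (ConA against CIV) and -1.25 to 0.26 (ANIT against all 17). Leaving out the gavage mice with the lowest TMM factors (Ctrl 1, ANIT 1, APAP 1, MDA 2, TAA 1), chosen after seeing the data, gave shares of -2.37 (ANIT) and 1.80 points (APAP), both then called, and Cebpb with APAP at -0.10.

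Without Alb the shares were -0.31 (MDA) and -0.26 (TAA) points against Ctrl, and -0.61 (ANIT, then called), -0.25 (MDA) and -0.19 (TAA) against all 17. All genes as denominator gave -0.0397 (MDA against Ctrl), -0.0878 (Alb, GAL against CIP) and 0.85 (Alb, APAP against all 17, then called). Values multiplied by transcript length gave Alb shares of -0.18 (GAL against CIP) and -1.18 (ConA against all 17, no longer called). Permutation within number ranges gave -0.0823 (MDA) and -0.00489 (TAA). The cause of these changes was not tested. Depth is unknown in reads, and CIP and CIV hold 2 mice each.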

Other observations

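Genes of the hepatocyte zones were counted beside the carriers. Of 10 periportal genes, 10 fell with CCl4 (list median -1.73, edgeR), 9 with GAL (-3.00), 7 with TAA (-1.32), 5 with APAP (-0.70), 3 with ConA (-0.85), 3 with MDA (-0.22) and 2 with ANIT (-0.02). In the same list 3 rose with ANIT, 3 with MDA, 2 with ConA, 1 with APAP, 1 with TAA and 0 with CCl4 or GAL. Gls2, the liver glutaminase, fell with all 7 compounds, from -0.96 ± 0.19 with ANIT to -2.71 ± 0.22 with GAL. Hal, histidine ammonia lyase, was at 0.10 ± 0.13 with ANIT and 0.05 ± 0.12 with MDA, neither called, and fell with the other 5, from -1.36 ± 0.29 with APAP to -4.06 ± 0.63 with GAL. Hsd17b13, a lipid droplet protein, rose with ConA (1.01 ± 0.26), MDA (0.87 ± 0.11), ANIT (0.82 ± 0.13) and TAA (0.77 ± 0.13) and fell with CCl4 (-0.63 ± 0.14). Sdsl, which resembles serine dehydratase, rose with ConA (3.78 ± 0.41), APAP (1.22 ± 0.36), ANIT (1.12 ± 0.25) and MDA (0.90 ± 0.22) and fell with GAL (-1.10 ± 0.17) and CCl4 (-0.66 ± 0.17). With library totals as scaling, neither gene was called with CCl4 or GAL, nor Hsd17b13 with ConA; without either CIP mouse the CCl4 call of Sdsl was lost. The Sdsl calls with ANIT, APAP and MDA were lost among mice numbered 1 to 4 (0.79, 1.19 and 0.41).

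Of 10 pericentral genes, 9 fell with APAP (list median -2.35), 8 with MDA (-1.35), 8 with TAA (-1.18), 8 with CCl4 (-2.16), 5 with GAL (-1.45), 5 with ConA (-0.95) and 4 with ANIT (-0.88), and 0 rose with any compound. Gulo, the last enzyme of vitamin C synthesis, fell with all 7, from -1.04 ± 0.22 with CCl4 to -2.50 ± 0.46 with GAL. Cyp2e1, which activates CCl4 and APAP, fell with CCl4 (-3.46 ± 0.20), APAP (-1.76 ± 0.65) and GAL (-0.57 ± 0.15). Its GAL value reversed to 0.19, not called, with libraries scaled to their totals, and the APAP call was lost within mice numbered 1 to 4 (-1.25) and above 4 (-2.72). Lgr5, a Wnt-dependent gene of the central vein, fell with 6 compounds, from -1.84 ± 0.25 with CCl4 to -3.86 ± 0.33 with APAP, and was at -1.43 ± 0.80, not called, with GAL. With 1 mouse left out, calls were lost for Cyp2e1 with GAL in 5 of 6 fits, Gulo with GAL in 2 of 6 and with ConA in 1 of 2, and Gls2 with ConA in 2 of 2. The share of all genes called either way, to be set beside these counts, was 28.2% (ANIT), 31.8% (APAP), 33.8% (MDA), 50.5% (TAA), 33.5% (CCl4), 28.5% (GAL) and 34.2% (ConA).

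Among 18 other proteins secreted by hepatocytes, 18 fell with GAL (list median -1.46), 16 with CCl4 (-1.33), 13 with APAP (-0.55), 10 with TAA (-0.47), 7 with MDA (-0.24), 2 with ANIT (0.07) and 2 with ConA (-0.24), where 15.7%, 15.6%, 14.6%, 24.0%, 16.4%, 14.2% and 17.3% of all genes fell in the same order. The 2 of 18 with ANIT and with ConA are near or below those shares. In this list 2 rose with APAP, 2 with MDA, 1 with ANIT, 1 with TAA and 0 with the other 3. Igfals, which holds insulin-like growth factor in plasma, fell with all 7, from -1.47 ± 0.44 with ConA to -3.46 ± 0.54 with GAL; the ConA call was lost in 1 of the 2 fits without 1 CIV mouse. Apoa1, the main protein of HDL, rose with TAA (0.73 ± 0.19) and APAP (0.41 ± 0.15) and fell with CCl4 (-1.36 ± 0.17) and GAL (-1.20 ± 0.15). Apob, the core protein of VLDL and LDL, rose with MDA (0.83 ± 0.24) and fell with GAL (-1.21 ± 0.35), a call lost in 5 of the 6 fits without 1 mouse.

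The major urinary proteins (Mup genes, near-identical copies summed) held 2.50% ± 1.10 of nuclear estimated counts in Ctrl livers (SD, n = 13). The 2 CIP mice held 2.86% and 1.05%. The share was 1.17% ± 0.44 with CCl4 (n = 7, 0.439% to 1.87%) and 5.11% ± 1.94 with GAL (n = 4). These values were not tested.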
